A study of Mus musculus with 5 samples.

Results

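Ribosomal protein genes encode the proteins that, together with ribosomal RNA, build the cytosolic ribosome. The rows were chosen by name: Rpl or Rps followed by a number and at most 1 trailing letter (a, l, x or y), together with Rplp0, Rplp1, Rplp2 and Rpsa. That rule found 81 of the 23234 genes in the table, of which 49 code for proteins of the large subunit and 32 for proteins of the small subunit. No expression value entered the choice.

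RNA sequencing had been made from germinal centre light zone B cells of the spleen, the compartment in which B cells test their receptor against retained antigen. The donor B cells were on a C57BL/6 background and carried B1-8hi(KI/+), a knock-in heavy chain that binds the hapten NP, ERT2cre(KI/+), a Cre recombinase that needs tamoxifen to act, and the CD45.1/2 markers. They were either Csk(+/+) or Csk(fl/fl), and Csk is a tyrosine kinase that holds Src family kinases in check. Naive donor cells went into C57BL/6J hosts that were immunized i.p. with NP-CGG in alum on day 0. Both groups received tamoxifen on days 8 and 9, so the controls carried the Cre and received the drug too, and NP-binding donor light zone cells were sorted on day 11. The label Csk(+/+) covered 3 libraries and the label Csk(f/f) covered 2, described by the submitters as biological replicates. Whether animals were pooled, and which promoter drives the Cre, are not given in the sources used here.

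Every translating cell needs ribosomal proteins in nearly equal numbers, and their mRNAs are among the most abundant of proliferating cells. In mammals these mRNAs typically begin with a short tract of pyrimidines, the 5′ terminal oligopyrimidine (TOP) motif, through which mTORC1 and LARP1 control their translation. RNA abundance does not record that control. Most ribosomal protein genes have also left many processed pseudogenes in the mouse genome, which bears on how their reads can be assigned.

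The values were FPKM, fragment numbers scaled to transcript length and library size, so levels can be set side by side per length. Depth is not given by the file, but the steps between the lowest FPKM values put it at an estimated 9661000 to 23710000 fragments a library, and 13291 to 14981 genes were above 0. The Csk row was at 378, 436 and 415 FPKM under the label Csk(+/+) and at 453 and 476 FPKM under the label Csk(f/f), a log2 fold change of 0.18 (95% interval -0.14 to 0.50, limma adjusted p = 0.439; exact two-sided permutation p = 0.2, where 0.1 is the smallest that the 10 splits allow). The Csk row thus went against the label of the Csk(f/f) libraries, although a whole-gene value need not drop when only some exons are removed, and the deleted exons are not given here; the groups are therefore called by their labels throughout, as Csk(f/f)-labelled and Csk(+/+). All 11 germinal centre B cell markers and all 7 light zone markers in the table passed the filter on low values, among them Cd83 at 379 to 515 FPKM. All 7 dark zone markers passed it too, with a summed level of 296 to 370 FPKM beside 857 to 1004 FPKM for the light zone markers, so the filter does not tell the zones apart. The table holds 7 T cell markers, of which 2 passed the filter. The summed level of all 7 was 106 to 124 FPKM, nearly all of it from Lck at 105 to 122 FPKM; the T cell receptor partners Cd3e and Cd3g were at 0 in every library. Of 9 myeloid markers 2 passed, Lyz2 at 1.91 to 12.1 FPKM and Cd68 at 9.53 to 13.1 FPKM, with a sum of 11.6 to 24.2 FPKM, and Csf1r, a defining macrophage gene, was between 0.0845 and 0.538 FPKM. Erythroid transcripts were present, with 7 of 7 markers tested and a summed level of 239, 1260 and 511 FPKM in Csk(+/+) and 686 and 270 FPKM in Csk(f/f)-labelled libraries.

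Ribosomal protein genes took up a large share of all FPKM in each library. Of the summed FPKM they held 26.8, 27.6 and 33.9% in Csk(+/+) and 30.3 and 28.4% in Csk(f/f)-labelled libraries. The groups overlapped, with means of 29.4% ± 3.91 (SD, n = 3) and 29.3% ± 1.36 (SD, n = 2). In bulk RNA of this kind, fewer cells of a type and less RNA per cell cannot be told apart. Of the 100 rows with the highest FPKM in a library, between 63 and 66 were ribosomal protein genes. The large subunit accounted for 14.9 to 19.0% of the summed FPKM and the small subunit for 11.9 to 14.9%, and the third Csk(+/+) library gave the upper end of both ranges.

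Most members sat within a narrow band of high levels. The mean over the 5 libraries was at least 1000 FPKM for 65 of the 81 genes and between 150 and 1000 FPKM for 8, while 8 lay under 150 FPKM. The median of these means was 2544 FPKM. Levels over the 73 genes of at least 150 FPKM showed a Spearman rho of 0.42 with transcript GC content and -0.12 with transcript length, as a description over genes that share the same libraries.

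Rpl41, which encodes the smallest protein of the large subunit, had the highest level, at 5651, 6142 and 10810 FPKM in Csk(+/+) and 8853 and 7520 FPKM in Csk(f/f)-labelled libraries. Rpl28 of the large subunit followed at 4890, 5474 and 8367 against 7393 and 6485 FPKM. Rplp1, an acidic protein of the stalk that recruits translation factors, stood at 4823, 5234 and 7946 against 7017 and 6175 FPKM. In all 3 genes both Csk(f/f)-labelled values lay inside the range of the Csk(+/+) libraries, among which the third library was the highest of the 5.

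Among the small subunit rows chosen by name, Rps20, Rps15 and Rps16 had the highest levels. Rps20, a protein of the small subunit head, was at 4574, 4954 and 6678 FPKM in Csk(+/+) and 5517 and 4987 FPKM in Csk(f/f)-labelled libraries. Rps15, whose tail reaches the decoding centre, was at 3351, 3905 and 6082 against 5263 and 4559 FPKM. Rps16, whose C-terminal tail contacts the peptidyl-site tRNA, was at 3295, 3628 and 6118 against 4815 and 4036 FPKM. The ranges over libraries of these neighbours overlapped, but within every library Rps20 was above Rps15 and Rps16. Rps15 was above Rps16 in every library except the third Csk(+/+) one.

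**Figure D1:**
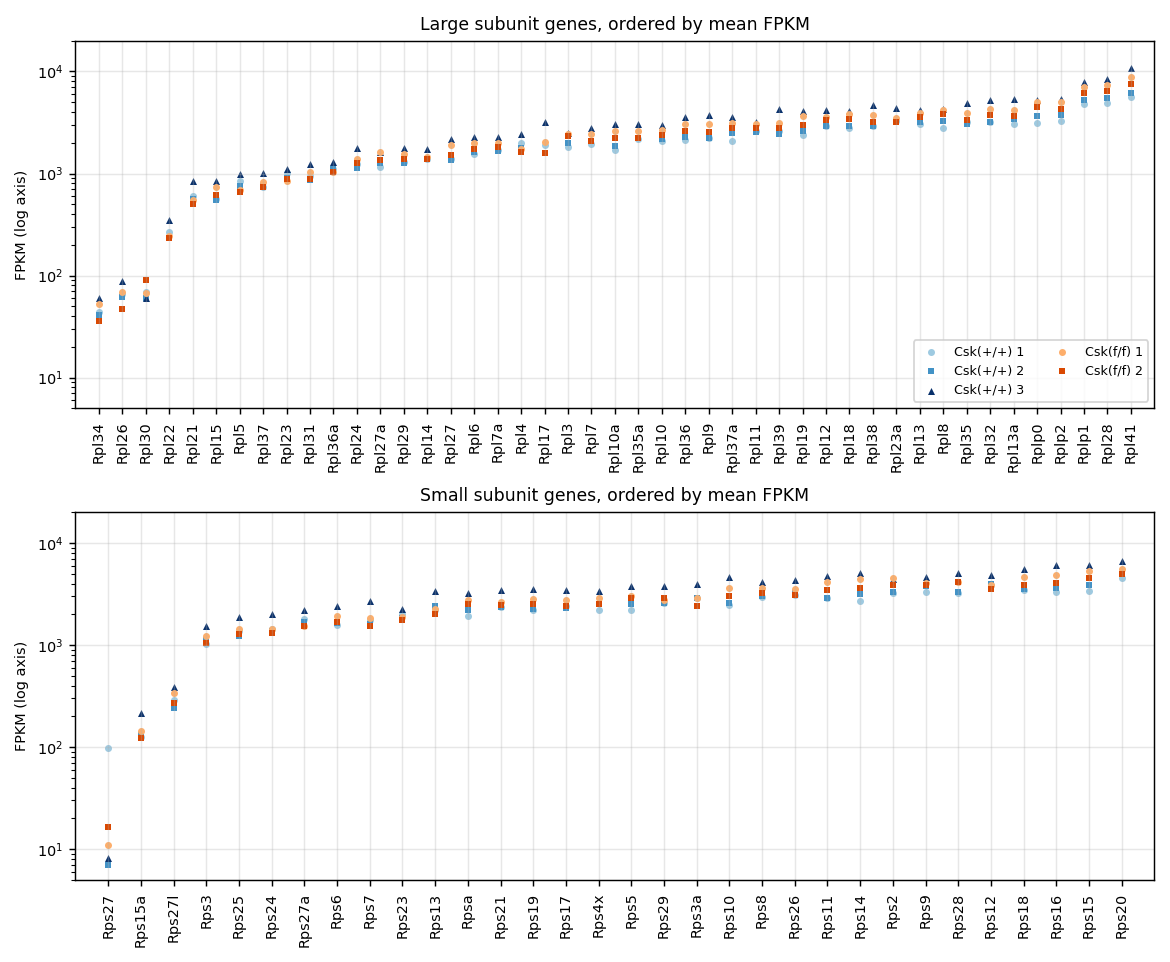
FPKM of ribosomal protein genes with a mean of at least 1 FPKM (log axis), 45 of the large subunit (top) and 32 of the small subunit (bottom), ordered by mean; points are the 5 libraries. A large subunit gene not reported here and Rpl39l, Rpl10l and Rpl3l, whose means are under 1 FPKM, are not drawn. Dark triangles, the third Csk(+/+) library, top most columns, and Rps27, Rpl34, Rpl26, Rpl30 and Rps15a sit far below the rest.

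Of the 8 rows under 150 FPKM, 5 belong to core ribosomal proteins. Rps27, a zinc-binding small subunit protein, was listed at 98.2, 7.05 and 8.10 FPKM in Csk(+/+) and 11.0 and 16.4 FPKM in Csk(f/f)-labelled libraries. The first Csk(+/+) library stood apart from the other 4 for this gene. Rpl34 was at 44.1, 40.7 and 60.6 against 52.6 and 35.9 FPKM. Rpl26, at the rim of the exit tunnel, was at 65.8, 61.4 and 88.3 against 69.3 and 46.9 FPKM. The groups overlapped for each of the 3 genes. Rpl30 stood at 68.5, 59.9 and 60.8 against 66.7 and 90.1 FPKM, and Rps15a at 127, 136 and 214 against 144 and 123 FPKM.

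A second row in the table held a near-identical copy of each of these 5 genes at a higher level. The search, chosen after these values were seen, took rows whose GENCODE transcript contained at least 40% of the 50-base stretches of the member's coding sequence. For Rps27 that row was Gm9846, annotated as protein coding on chromosome 9 while Rps27 lies on chromosome 3. Its transcript matched all 255 coding bases of Rps27 with 0 mismatches, and it stood at 3734, 3964 and 6225 FPKM in Csk(+/+) and 5059 and 4874 FPKM in Csk(f/f)-labelled libraries. In every library Gm9846 was thus within the usual range of a ribosomal protein gene while Rps27 was not.

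The other 4 rows are annotated as processed pseudogenes. Rpl34-ps1 on chromosome 6 differed from Rpl34 (chromosome 3) at 2 of 354 coding bases and had a mean of 2524 FPKM. Gm15772 on chromosome 5 differed from Rpl26 (chromosome 11) at 2 of 438 coding bases and had a mean of 2623 FPKM. Gm12191 on chromosome 11 differed from Rpl30 (chromosome 15) at 1 of 348 coding bases and had a mean of 1902 FPKM. Gm11968 on chromosome 11 differed from Rps15a (chromosome 7) at 5 of 393 coding bases and had a mean of 199 FPKM. The first 3 rows lay between 27.5 and 53.9 times above their members, and Gm11968 lay 1.34 times above Rps15a.

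Stretches of 60 coding bases are printed for these pairs. They show how few coding bases could tell a read of one row from a read of the other. They run 5′ to 3′ on the coding strand in GRCm38, from coding base 1 for Rps27, 102 for Rpl34, 147 for Rpl26, 66 for Rpl30 and 114 for Rps15a, and capitals mark the bases at which the pair differs.
Rps27: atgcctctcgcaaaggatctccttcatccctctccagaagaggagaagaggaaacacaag
Gm9846: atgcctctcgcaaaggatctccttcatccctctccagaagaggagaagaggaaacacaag
Rpl34: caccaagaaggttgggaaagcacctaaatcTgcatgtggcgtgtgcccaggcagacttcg
Rpl34-ps1: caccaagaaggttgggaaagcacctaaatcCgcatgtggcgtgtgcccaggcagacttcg
Rpl26: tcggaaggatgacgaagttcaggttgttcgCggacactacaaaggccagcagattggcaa
Gm15772: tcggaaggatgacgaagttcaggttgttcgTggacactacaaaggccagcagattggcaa
Rpl30: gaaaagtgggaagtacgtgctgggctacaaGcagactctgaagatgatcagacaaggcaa
Gm12191: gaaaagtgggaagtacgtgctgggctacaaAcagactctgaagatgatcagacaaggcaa
Rps15a: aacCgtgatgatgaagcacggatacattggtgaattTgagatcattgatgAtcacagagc
Gm11968: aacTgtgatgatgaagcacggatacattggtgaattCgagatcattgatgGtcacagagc
The Rps27 and Gm9846 stretches are the same letter for letter, and the next 3 pairs differ at a single base. Reads that lie within the coding sequence and cover no base that differs cannot be told apart by sequence. How the authors' counting divided such reads was not analysed here, and bases outside the coding sequence were not compared.

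**Figure D2:**
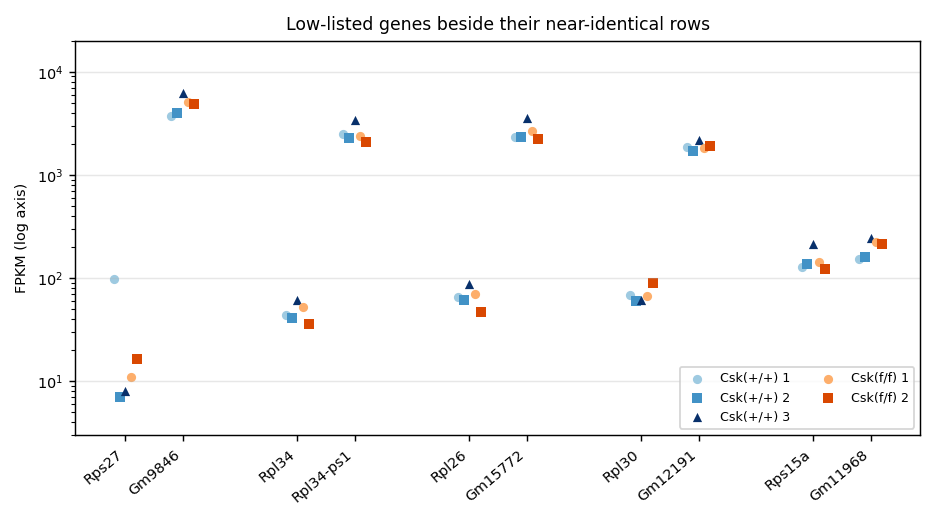
FPKM (log axis) of the 5 low-listed ribosomal protein genes, each beside the row of its near-identical copy; points are the 5 libraries. The copy rows of Rps27, Rpl34, Rpl26 and Rpl30 lie at about the level of the other ribosomal protein genes, and that of Rps15a lies close to its member.

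Sharing of sequence was not limited to these genes. Among the 73 members of at least 150 FPKM, a median of 93.2% of the 50-base coding stretches also occurred in another annotated gene, and 62 of the 73 shared more than 50%. The same median was 84.3% in the 5 low-listed genes. A level read from 1 row is therefore uncertain for most members, in either direction. Only 3 further rows met the search, and each stood below its member: BC004004 at a mean of 28.5 FPKM beside Rpl21, Wdr89 at 5.81 FPKM beside Rplp2 and Gm6654 at 209 FPKM beside Rps26.

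The remaining 3 low rows are paralogs known for expression in testis or muscle. Rpl3l, the striated muscle form of Rpl3, was listed at 0 in all 5 libraries, while Rpl3 itself was at 1817, 1993 and 2516 FPKM in Csk(+/+) and 2438 and 2325 FPKM in Csk(f/f)-labelled libraries. Rpl10l, an intronless testis form of the X-linked Rpl10, was at 0.0708 FPKM in the first Csk(+/+) library and listed at 0 in the other 4. Rpl10 was at 2085, 2158 and 2987 against 2664 and 2378 FPKM. Neither Rpl3l nor Rpl10l passed the filter on low values.

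Rpl39l, a testis-enriched form of Rpl39, had 0.867, 1.09 and 1.03 FPKM in Csk(+/+), and the Csk(f/f)-labelled libraries both list it at 0. These values correspond to an estimated 11.1, 17.4 and 9.85 fragments. The groups did not overlap, and the gene had the smallest p of all members, but its limma adjusted p over 10242 genes was 0.128. It passed the filter only through the Csk(+/+) libraries, and since an exact 0 in such a file may reflect an estimate that failed, it is given without a fold. Rpl39 was at 2602, 2448 and 4262 against 3121 and 2764 FPKM, a log2 fold change of -0.03 (adjusted p = 0.950). Rps27l, a p53-responsive paralog of Rps27, was at 287, 240 and 386 against 339 and 269 FPKM, with a log2 fold change of 0.02 (adjusted p = 0.968). The Rps27l estimate depended on the setting: it was 0.34 after subtraction of each library's trend of expression on transcript GC content (adjusted p = 0.733), and 0.57 when the third Csk(+/+) library was left out as well (adjusted p = 0.0980).

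The comparison of the groups asked whether ribosomal protein transcripts differed once Csk had been targeted in light zone B cells. Of the 79 members that passed the filter (at least 1 FPKM in at least 2 libraries), 0 passed the test in limma on log2(FPKM + 1) at an adjusted p under 0.05. Over all 10242 genes tested, 0.0781% passed. At an unadjusted p under 0.05, 0 members were higher and 1 was lower in the Csk(f/f)-labelled libraries, against 8.07% and 13.6% of all genes. The 1 lower member was Rpl39l, a gene at 0 in that group that had passed the filter only through Csk(+/+). The median log2 fold change was 0.02 over the members and -0.01 over all tested genes, with 44 members above 0 and 35 below.

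Groups that did not overlap were also few among the members. In 0 of 79 members did both Csk(f/f)-labelled libraries lie above all 3 Csk(+/+) libraries, against 20.7% of all tested genes. The third Csk(+/+) library was the highest of the 5 in 74 members, in which that outcome was not possible. Without that library, both lay above the remaining Csk(+/+) libraries in 50 members and below them in 8. The shares of all tested genes were then 28% and 38.4%. With all 5 libraries, both Csk(f/f)-labelled libraries lay below all 3 Csk(+/+) libraries in 8 members, against 24.5% of all tested genes. The 8 include Rpl39l, which passed the filter only through Csk(+/+). In 54 members both Csk(f/f)-labelled values fell between the lowest and the highest Csk(+/+) value. The highest Csk(+/+) value was that of the third library in 76 members, and the share over all genes was not computed for this count. The median half-width of the 95% interval, which is not adjusted for the number of genes, was 0.56 on the log2 scale. For a typical member, an estimate smaller than that had an interval that included 0. The adjusted threshold is stricter, so an estimate had to be larger than that to pass.

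Among the members reported here, the largest positive estimates belonged to Rpl30 and to the stalk and large subunit genes Rplp0, Rpl8 and Rplp2, with Rps2 of the small subunit. The log2 fold change was 0.30 for Rpl30 (95% interval -0.08 to 0.67, limma adjusted p = 0.303), whose row shares most of its sequence with Gm12191. Gm12191 itself had a log2 fold change of -0.04. Rpl8, which lies near the peptidyl transferase centre, was at 2792, 3283 and 4240 FPKM in Csk(+/+) and 4186 and 3820 FPKM in Csk(f/f)-labelled libraries, a log2 fold change of 0.24 (adjusted p = 0.585). Rps2, at the mRNA entry side, was at 3238, 3343 and 4415 against 4500 and 3857 FPKM, with 0.20 (adjusted p = 0.638). The groups overlapped in each of these genes.

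At the other end stood Rpl39l and Rps27, described above, and then Rpl5, Rpl21, Rpl26 and Rps13. The log2 fold change of Rps27 was -0.42 with a 95% interval from -2.70 to 1.86, and without the first Csk(+/+) library it was 0.76. Rpl21 was at 596, 562 and 838 FPKM in Csk(+/+) and 549 and 503 FPKM in Csk(f/f)-labelled libraries, a log2 fold change of -0.32 (adjusted p = 0.367). The groups did not overlap, but the closest values of the 2 groups differed little. Rps13, a small subunit protein that forms a bridge to the large subunit, was at 2206, 2399 and 3360 against 2230 and 2004 FPKM, with -0.30 (adjusted p = 0.463). Rpl26 had a log2 fold change of -0.31 (adjusted p = 0.406), beside -0.14 for its copy row Gm15772.

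**Figure D3:**
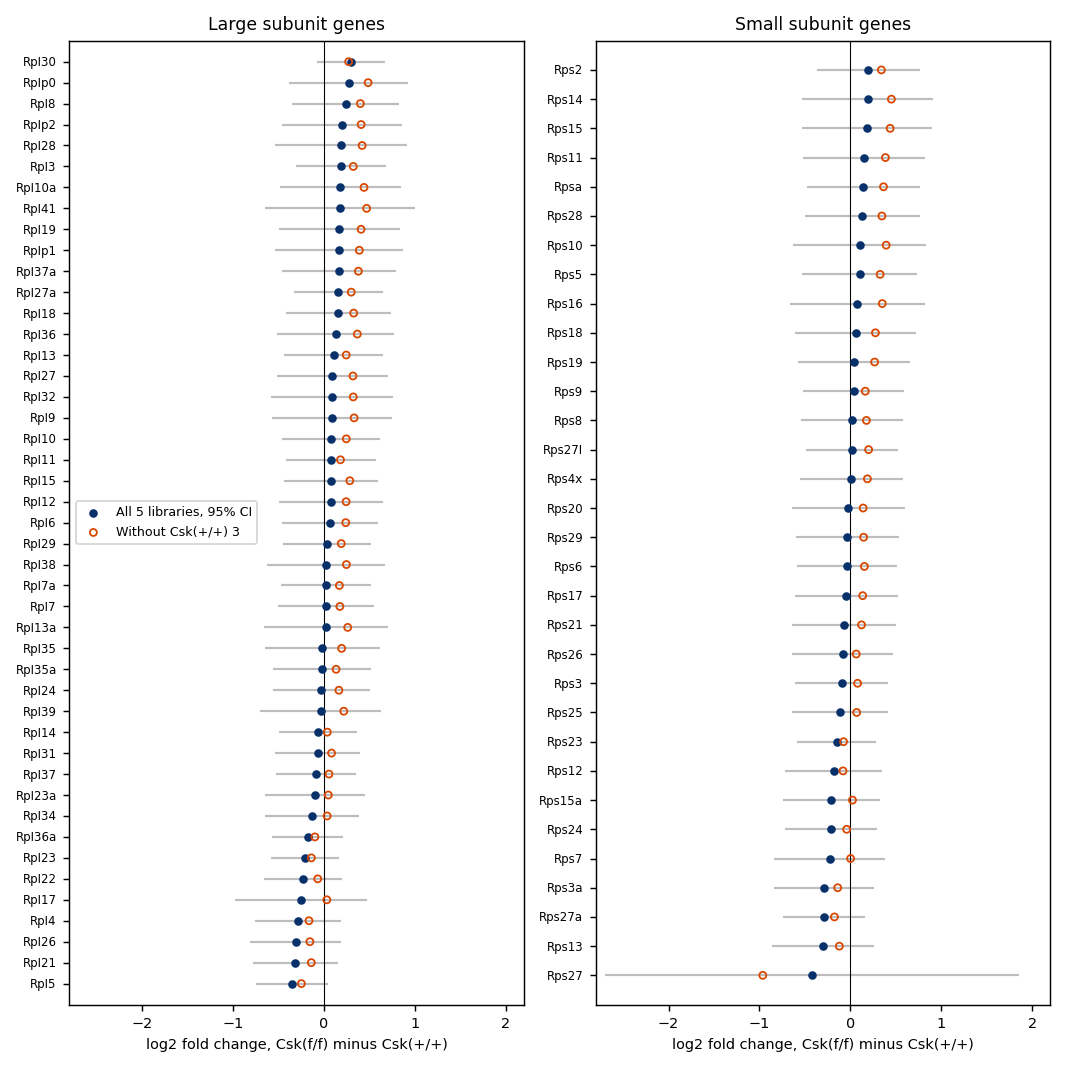
Log2 fold change of tested genes with a mean of at least 1 FPKM, Csk(f/f)-labelled minus Csk(+/+), for 45 large subunit genes (left) and 32 small subunit genes (right). Filled points and bars are the estimate and 95% interval from all 5 libraries, and open circles are the estimate without the third Csk(+/+) library; all intervals include 0, and nearly all open circles lie to the right of the filled points.

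The members were next read by their place in the ribosome. The P stalk carries Rplp0, Rplp1, Rplp2 and the base protein Rpl12, and docks elongation factors. Rplp0 was at 3143, 3642 and 5263 FPKM in Csk(+/+) and 4981 and 4510 FPKM in Csk(f/f)-labelled libraries, with a log2 fold change of 0.27 (adjusted p = 0.575). Rplp2 was at 3275, 3752 and 5429 against 5046 and 4297 FPKM, with 0.20 (adjusted p = 0.687). Rpl12 was at 2902, 2923 and 4156 against 3592 and 3314 FPKM, with 0.07 (adjusted p = 0.873). All 4 stalk estimates were above 0, with a median of 0.18, and 0 of 4 passed. After subtraction of the GC trend the median was 0.00, with 2 of 4 above 0.

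The 5S RNP joins Rpl5 and Rpl11 to 5S ribosomal RNA and, outside the ribosome, binds MDM2 and so stabilizes p53. Rpl5 was at 841, 755 and 991 FPKM in Csk(+/+) and 685 and 657 FPKM in Csk(f/f)-labelled libraries. The groups did not overlap, and the log2 fold change was -0.35 (95% interval -0.75 to 0.04, limma adjusted p = 0.264). Rpl11 was at 2599, 2545 and 3173 against 3084 and 2761 FPKM, with a log2 fold change of 0.08 (adjusted p = 0.833). Both signs turned when the GC trend was subtracted, to 0.06 for Rpl5 and -0.05 for Rpl11, and neither gene passed in either setting.

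Among 7 members at the rim of the polypeptide exit tunnel, 1 estimate was above 0 and 6 were below, with a median log2 fold change of -0.07. Among 5 members at the decoding centre, 3 were above 0 and 2 below, with a median of 0.03. A list of 10 members mutated in Diamond-Blackfan anaemia, an inherited failure of red cell production, gave 4 above 0 and 6 below. The median was -0.03, and the list does not hold every member linked to that disease. The 4 X-linked members gave 2 and 2, with a median of -0.01. None of the members of these 4 lists passed in the limma fit, and at an unadjusted p under 0.05 the count was 0 in each list. The directions were not stable. Without the third Csk(+/+) library, 6 of 7 exit tunnel estimates lay above 0 (median 0.08), as did 4 of 5 at the decoding centre (0.16), 8 of 10 of the anaemia genes (0.13) and 3 of 4 X-linked ones (0.20). With all 5 libraries and the GC trend subtracted, the medians were -0.06, -0.06, -0.04 and 0.07.

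A single library set most of the spread. The third Csk(+/+) library had the highest value of the 5 in 74 of the 79 tested members (93.7%), against 19% of all tested genes. The median deviation from a gene's own 5-library mean, on the log2(FPKM + 1) scale, was -0.21, -0.17 and 0.38 over the members in Csk(+/+) and 0.10 and -0.08 in Csk(f/f)-labelled libraries. Over all tested genes the same medians were 0.07, 0.05, -0.07, -0.02 and 0.00, so the third Csk(+/+) library was high in ribosomal protein genes and not in genes at large. Among the 73 members of at least 150 FPKM it stood 1.15 to 1.83 times above the mean of the other 2 Csk(+/+) libraries, with a median of 1.46 times. Between the Csk(f/f)-labelled libraries, the first was above the second in 74 of 79 members.

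Other genes at the same GC content did not share this position. For 3264 other genes inside the interquartile GC range of the members (48.5 to 54.5%), the median deviation in the third Csk(+/+) library was -0.14. Marker levels also moved with the libraries: the median deviation of the 7 erythroid markers was -0.53, 1.37 and 0.05 in Csk(+/+) and 0.47 and -1.02 in Csk(f/f)-labelled libraries, highest in the second Csk(+/+) library. The 2 myeloid markers that passed the filter, Lyz2 and Cd68, had a median deviation of -0.82 in the third Csk(+/+) library, where the sum over the 9 myeloid markers in the table was 11.6 FPKM against 19.5 to 24.2 FPKM elsewhere. The estimated depth of that library was 11890000 fragments, the second lowest of the 5. The part of these differences in the result was not tested.

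**Figure D4:**
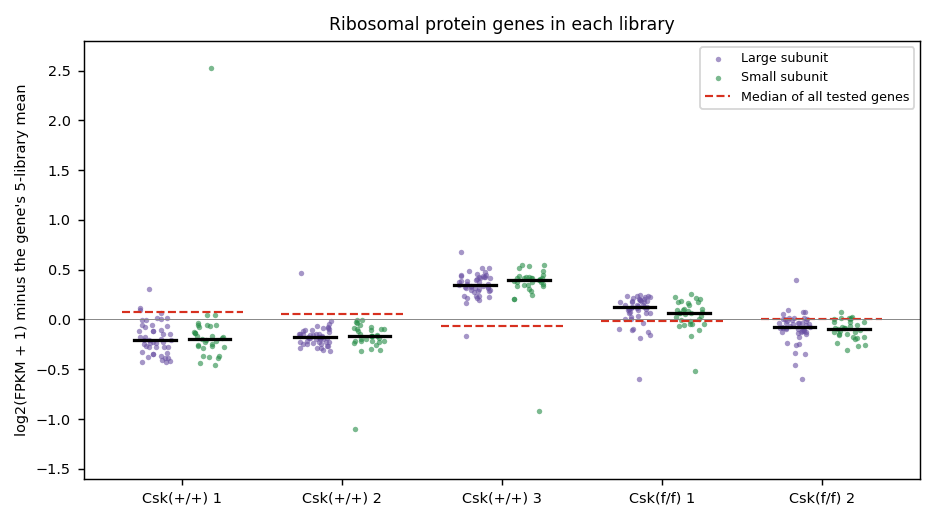
Deviation of each tested ribosomal protein gene from its own mean over the 5 libraries, on the log2(FPKM + 1) scale, for 47 large subunit genes (purple) and 32 small subunit genes (green); black bars are medians and dashed red lines are the median of all tested genes. The third Csk(+/+) library lies above 0 in nearly all members while the dashed line lies just below 0; the points farthest from 0 are Rps27.

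Without that library the estimates were higher, and 0 members passed. The median log2 fold change of the 78 members still tested was then 0.19, beside -0.06 for all genes, with 64 members above 0. The count past an adjusted p under 0.05 was 0, against 4.05% of all genes in that fit. At an unadjusted p under 0.05, 27 members were higher and 0 lower, against 13.3% and 21.4% of all genes. Rplp0 had the smallest adjusted p among them, 0.0642, at a log2 fold change of 0.49. Both Csk(f/f)-labelled values lay above both remaining Csk(+/+) values in 50 of the 79 members and below them in 8, against 28% and 38.4% of all tested genes. The fit had only 2 libraries on each side, and the library was left out after its values were seen.

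Transcript GC content moved with the fold change. The Spearman rho between log2 fold change and GC content was 0.73 over the 10118 tested genes of known GC content and 0.57 over the 79 members. These are correlations across genes measured in the same libraries. Among the 26 members of lowest GC content (41.3 to 48.9%), 19 estimates were below 0 and the median was -0.11. Among the 27 of highest GC content (53.8 to 60.8%), 24 were above 0 and the median was 0.13. Rpl5, at 42.7% GC, lay low in both orders, and Rpl8, at 58.0% GC, lay high in both.

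Subtracting each library's lowess trend of expression on GC content moved the members' median to -0.04, with 30 of 79 above 0 and 0 past an adjusted p under 0.05 (0.0692% of all genes passed). The rho between fold change and GC content within the members was then -0.55, so the trend fitted on all genes exceeded the one within the members. Rpl5 had a log2 fold change of 0.06 after the subtraction, Rpl8 -0.05 and Rplp0 0.14. With the third Csk(+/+) library left out and the GC trend subtracted, the median was 0.19, and at an unadjusted p under 0.05 there were 14 members higher and 1 lower, against 9.47% and 9.5% of all genes. The sign of the members' median therefore differed between settings, and 0 members passed an adjusted p under 0.05 in any of these 4 fits.

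**Figure D5:**
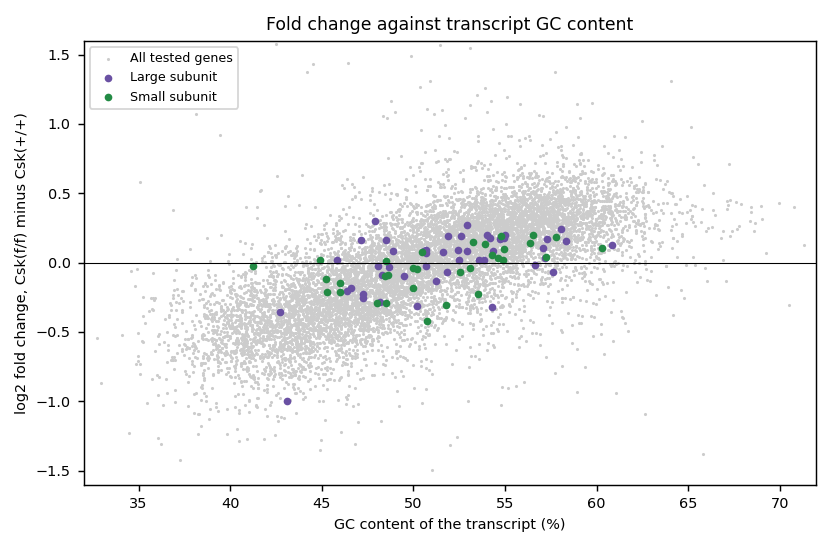
Log2 fold change, Csk(f/f)-labelled minus Csk(+/+), against transcript GC content for all tested genes (grey) and the ribosomal protein genes of the large (purple) and small (green) subunit. Both the grey cloud and the coloured points slope upward (rho 0.73 and 0.57); 62 grey genes lie outside the axes.

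Large and small subunit genes were then set against each other. The summed FPKM of the large subunit divided by that of the small subunit was 1.26, 1.25 and 1.28 in Csk(+/+) and 1.34 and 1.33 in Csk(f/f)-labelled libraries. The means were 1.26 ± 0.0122 (SD, n = 3) and 1.33 ± 0.0108 (SD, n = 2), and the groups did not overlap. In the third Csk(+/+) library, where both subunits were high, the ratio was 1.28. Median levels per gene were 1920, 1876 and 2762 FPKM for the large subunit in Csk(+/+) and 2438 and 2092 FPKM in Csk(f/f)-labelled libraries. For the small subunit they were 2371, 2511 and 3643 against 2840 and 2529 FPKM. The small subunit thus had the higher median per gene in every library, while the large subunit, with more genes, had the higher sum.

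The separation of this ratio was present without Rpl41 (1.18, 1.18 and 1.18 against 1.25 and 1.23) and without the 6 most abundant members (1.24, 1.24 and 1.24 against 1.31 and 1.29). It was also present with the rows of the higher-level copies added (1.28, 1.27 and 1.28 against 1.34 and 1.32). After subtraction of the GC trend the ratios were 1.27, 1.26 and 1.29 against 1.33 and 1.29, and the groups overlapped. These settings were added after the values were seen, and the ratio was given no test.

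Fold changes of single genes were also summarized by subunit, with no test between them. The median log2 fold change was 0.07 over 47 large subunit genes, of which 29 were above 0, and -0.03 over 32 small subunit genes, of which 15 were above 0. The difference of the medians was 0.10, and 0.05 after subtraction of the GC trend. Median transcript GC content was 51.8% in the large and 51.3% in the small subunit. Without the third Csk(+/+) library the medians were 0.24 and 0.15, and their difference was 0.02 when the GC trend was subtracted as well. With all 5 libraries and the GC content of the longest transcript in the trend, the difference was -0.02, so its direction depended on the setting.

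The bases around the annotated starts of the genes were searched for runs of pyrimidines, the letters of the TOP motif. A run found this way need not lie at the first base of the mRNA, where the TOP motif lies. RefSeq starts in GRCm38.p6 were found for 61 of the 81 members, with 73 starts. A run of at least 8 C or T within 25 bases on either side of the start was present at 33 of these starts (45.2%), against 18.8% of the starts of tested genes and 19.7% of all 32851 starts. The run was present at 22 of 44 large subunit starts and at 11 of 29 small subunit starts. Windows of 30 bases are printed for members with long runs and for 3 of the most abundant members with short ones. They show how much the longest run near an annotated start varies. Capitals mark the longest run of C and T, read 5′ to 3′ on the strand of the gene. The marked run begins 14 bases before the annotated start in Rpl7a, 11 before it in Rps16 and 11 after it in Rplp0.
Rpl7a (chr2:26910788-26910817, plus strand): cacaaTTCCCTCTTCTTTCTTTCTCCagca
Rpl27a (chr7:109519186-109519215, plus strand): gtgagCTCCTCCCTTTTCCCTTTCTgccac
Rpl15 (chr14:18270968-18270997, minus strand): gagaaagCCTTCTTCCTTTCCTCTggcggc
Rpl28 (chr7:4792952-4792981, plus strand): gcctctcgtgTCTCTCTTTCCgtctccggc
Rps18 (chr17:33955648-33955677, minus strand): gtcacttccgCTCTCTCTTCCacaggaggc
Rps10 (chr17:27635227-27635256, minus strand): ccgcgcacgCCCCTTCCTTTCCagcctccg
Rplp0 (chr5:115559466-115559495, plus strand): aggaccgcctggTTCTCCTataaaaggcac
Rps16 (chr7:28350665-28350694, plus strand): gccgtaaagcccgCTTCTgtcgtgacgtag
Rpl41 (chr10:128549156-128549185, minus strand): gacacacgggccggCTCggaagtgacgaca
Rpl7a had the longest run, 21 bases, and Rpl41, the most abundant member, had 3 bases. Where a gene had several starts the one with the longest run was taken. The absence of a run at an annotated start says only that these letters are not in that window. For the 32 tested members with a run of at least 8, the median log2 fold change was 0.00 and the median level 2378 FPKM, and for the 27 with shorter runs they were 0.04 and 2544 FPKM.

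Motifs of common promoter factors were counted in the 300 bases around the starts, from 250 before to 50 after, on either strand. The ETS-type sequence CCGGAAG was present at 37.0% of member starts, against 20.1% of the starts of tested genes and 8.86% of all starts. The YY1-type sequence AAGATGG was present at 15.1%, against 7.78% and 6.34%. The SP1-type sequence GGGCGG was present at 58.9%, against 64.0% and 35.7%, and the TATA box core TATAAA at 8.22%, against 6.65% and 13.6%. A match is a description of the letters and not a bound site. Of 12 listed transcription factors of ribosomal protein promoters, 11 were tested and 0 passed, and the median log2 fold change was -0.33 (-0.04 after subtraction of the GC trend). The ETS factor Gabpa was at 10.5, 8.84 and 10.9 against 7.49 and 5.36 FPKM (-0.58, limma adjusted p = 0.186), and the cell cycle factor E2f1 at 38.3, 37.6 and 33.0 against 44.6 and 51.1 FPKM (0.39, limma adjusted p = 0.194).

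Some ribosomal proteins carry other names and fall outside the rule. There were 7 such rows, all tested, among them Fau, which makes a ribosomal protein fused to a ubiquitin-like protein, and Gnb2l1, the small subunit scaffold RACK1. Their median log2 fold change was -0.05, with 0 passed, and 6 of 7 were highest in the third Csk(+/+) library. Rpl22l1, a paralog of Rpl22, was at 270, 221 and 330 FPKM in Csk(+/+) and 208 and 187 FPKM in Csk(f/f)-labelled libraries. The groups did not overlap, as in 24.5% of all tested genes in this direction. The log2 fold change was -0.45 (limma adjusted p = 0.220), and 0.02 after subtraction of the GC trend. Rps4y2 was at 10.2, 9.14 and 14.3 against 10.4 and 6.80 FPKM, with -0.35 (limma adjusted p = 0.417). The 3 rows named as ribosomal pseudogenes, Rpl34-ps1, Rplp2-ps1 and Rps19-ps3, were all highest in the third Csk(+/+) library, and 0 passed.

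The other genes of the translation machinery were read from lists of names. For 20 elongation factors and other classic TOP mRNAs the median log2 fold change was -0.14. None of the 20 passed the adjusted threshold in limma, and at an unadjusted p under 0.05 there were 0 higher and 5 lower, against 8.07% and 13.6% of all genes. After subtraction of the GC trend the counts were 0 and 0, against 4.04% and 4.94% of all genes. Their median deviation in the third Csk(+/+) library was 0.24. Npm1, the nucleolar chaperone nucleophosmin, was at 683, 481 and 625 FPKM in Csk(+/+) and 380 and 299 FPKM in Csk(f/f)-labelled libraries, a log2 fold change of -0.81 (limma adjusted p = 0.154) and of -0.39 after subtraction of the GC trend. Nap1l1, a histone chaperone, was at 570, 473 and 648 against 371 and 275 FPKM, with -0.81 (limma adjusted p = 0.154) and -0.50 after the subtraction. In both genes the groups did not overlap. That was likely for genes picked by smallest p, and 24.5% of all tested genes were lower without overlap.

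For 29 initiation factors the median log2 fold change was 0.03. None passed in limma, and at an unadjusted p under 0.05 there were 0 higher and 8 lower, against 8.07% and 13.6% of all genes. After subtraction of the GC trend there were 0 higher and 1 lower, against 4.04% and 4.94% of all genes. Without the third Csk(+/+) library there were 9 higher and 9 lower, against 13.3% and 21.4% of all genes in that fit. Eif3m, a subunit of the eIF3 complex, was at 167, 151 and 204 FPKM in Csk(+/+) and 113 and 93.0 FPKM in Csk(f/f)-labelled libraries, with -0.75 (limma adjusted p = 0.154). Eif1ax, which helps to select the start codon, was at 130, 112 and 146 against 91.4 and 78.6 FPKM, with -0.60 (limma adjusted p = 0.155). After subtraction of the GC trend these were -0.41 and -0.10.

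Genes that control the translation of TOP mRNAs (15 of 16 tested) had a median log2 fold change of 0.24, or 0.03 after subtraction of the GC trend. At an unadjusted p under 0.05, 4 were higher and 3 lower, against 8.07% and 13.6% of all genes, and 0 passed the adjusted threshold. After the subtraction 1 was higher and 0 lower, against 4.04% and 4.94% of all genes. Akt2, a kinase upstream of mTORC1, was at 51.5, 56.6 and 55.6 FPKM in Csk(+/+) and 74.0 and 75.0 FPKM in Csk(f/f)-labelled libraries, with 0.44 (limma adjusted p = 0.155). Tsc2, part of the complex that restrains mTORC1, was at 16.0, 18.2 and 15.3 against 21.0 and 24.7 FPKM, with 0.45 (limma adjusted p = 0.191).

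Ribosome biogenesis factors (42 genes) were balanced, with 21 estimates above and 21 below 0, and a median of 0.00. At an unadjusted p under 0.05 there were 5 higher and 5 lower, against 8.07% and 13.6% of all genes. None passed the adjusted threshold. With the GC trend subtracted the counts were 3 and 1, against 4.04% and 4.94% of all genes. Ncl, the nucleolar protein nucleolin, was at 96.7, 64.4 and 102 FPKM in Csk(+/+) and 56.1 and 40.1 FPKM in Csk(f/f)-labelled libraries, with -0.84 (limma adjusted p = 0.155). Rrp9, a component of the U3 particle that processes ribosomal RNA, was at 53.4, 58.7 and 58.2 against 76.6 and 77.0 FPKM, with 0.43 (limma adjusted p = 0.157). The groups did not overlap in either gene. That was likely for genes picked by smallest p, and 24.5% of all tested genes were lower and 20.7% higher without overlap.

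Genes that sense unassembled ribosomal proteins, with p53 and its regulators, gave 8 tested genes of 10 listed, and 0 passed. Their median log2 fold change was -0.25, or -0.15 after subtraction of the GC trend. Mdm4, a partner of MDM2 in restraining p53, was at 16.4, 13.9 and 8.23 FPKM in Csk(+/+) and 6.80 and 6.46 FPKM in Csk(f/f)-labelled libraries, with -0.81 (limma adjusted p = 0.182).

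Genes of the mitochondrial ribosome, which translates the mitochondrial genome and shares no protein subunit with the cytosolic one, numbered 76. Their median log2 fold change was 0.03, with 46 above 0 and 0 past the adjusted threshold. At an unadjusted p under 0.05 there were 0 higher and 3 lower, against 8.07% and 13.6% of all genes. That balance turned in other settings. After subtraction of the GC trend there were 4 higher and 0 lower, against 4.04% and 4.94% of all genes. Without the third Csk(+/+) library there were 18 and 5, against 13.3% and 21.4%. With both there were 19 and 0, where the shares of all genes were 9.47% and 9.5%. Mrpl1 was at 8.78, 6.69 and 8.83 FPKM in Csk(+/+) and 5.87 and 4.40 FPKM in Csk(f/f)-labelled libraries, with -0.57 (limma adjusted p = 0.200). Mrpl32 was at 29.9, 27.9 and 35.1 against 21.0 and 24.5 FPKM, with -0.42 (limma adjusted p = 0.200). The third Csk(+/+) library was the highest of the 5 in 46 of the 76 (60.5%), with a median deviation of 0.20, beside 93.7% and 0.38 for the cytosolic genes. Their summed FPKM was 3953 to 5266, against 169051 to 259213 for the cytosolic ribosomal protein genes.

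The calls in these lists differed without the third Csk(+/+) library. In that fit, at a limma adjusted p under 0.05 that 4.05% of all genes then passed, 3 initiation factors did so: Eif3m (log2 fold change -0.63), Eif4a2 (-0.75) and Eif6 (0.55). Yy1 (-0.55) and Gabpb2 (-0.76) of the promoter factors, Mdm2 (-0.75) and Mdm4 (-1.08) of the p53 list, Mrpl12 (0.55) of the mitochondrial ribosome and the pseudogene row Rps19-ps3 (0.48) also passed. These 9 genes were picked after their values were seen, and 0 of them passed with all 5 libraries. With the GC trend subtracted as well, 0 genes of these lists passed, against 0.469% of all genes.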

How the data were processed

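The deposited values were FPKM for each gene and library, made by the authors with TopHat2 2.0.8, Cufflinks 2.1.1 and the mm9 genome, per the submitters' processing notes. Per the labels' protocols, RNA was taken with TRIzol from sorted cells and libraries were made with the NEBNext Ultra RNA kit. The annotation, strand, read length and any scaling between libraries are not given in the sources used here. A line repeating the header was dropped.

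Genes of at least 1 FPKM in at least 2 of 5 libraries (10242) entered a fit of log2(FPKM + 1) in limma 3.58.1 under R 4.3.3 (trended prior, Benjamini-Hochberg adjustment over all tested genes, threshold 0.05). Fold changes on this scale understate changes of low genes. Members and lists were chosen with earlier results of these data known, so lists were described by counts and medians without a test. Members were named by rule: the 6 highest and 6 lowest levels, the 6 largest and 6 smallest log2 fold changes, any listed at 0, and the stalk, 5S RNP and paralog genes with their parent forms; from other lists the 2 genes of smallest p. Values of 1 member and of some list genes are not reported here.

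GC content, length and coding sequence came from GRCm38 (GENCODE) by gene name, from 1 principal transcript a gene, for 81 of 81 members and 10118 of the tested genes. The GC correction subtracted each library's lowess trend (span 0.3). Depth was estimated from the steps of the lowest FPKM values. Replicate numbers were not treated as pairs. Alternatives were another pseudocount or filter, median-ratio rescaling, quantile normalization, GC and length trends, the replicate block and each library left out. The fit was tested on simulated data.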

Additional observations from a re-analysis of the deposited data

How the results depend on the processing

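No ribosomal protein gene passed in the main analysis or in 21 of 22 alternatives; with the replicate block and the GC trend subtracted together 1 did, Rps27l, at a log2 fold change of 0.56. Whether the replicate numbers mark pairs is not given, and correlations of deviations between like-numbered libraries do not settle it. They were -0.13 for replicate 1 and 0.11 for replicate 2 over all genes, and -0.62 and -0.29 over the members. Only the third Csk(+/+) library has replicate number 3, so the block takes it out of the comparison. Block estimates thus repeat those without that library (Rpl41 at 0.4698 in both). With the GC trend subtracted they lie close (0.3023 and 0.3003). Over all genes, 4 were higher and 4 lower in the main analysis. The counts were 110 and 382 with the replicate block, 138 and 120 with the block and the GC trend subtracted, 8 higher with the length trend subtracted and 2 lower without a filter. With each library left out they ranged from 0 to 128 higher and from 5 to 283 lower, or from 0 to 21 and from 5 to 26 with the GC trend subtracted too; the highest counts came without the third Csk(+/+) library, and 0 genes were higher without either Csk(f/f)-labelled library. Where 1 Csk(f/f)-labelled library remained, it was assumed to vary like the other group.

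The members' median (0.02) was -0.03 with quantile normalization and -0.04 with the GC trend subtracted. It was 0.19 with the replicate block, which repeats the estimates without the third Csk(+/+) library. With each library left out it ranged from -0.08 to 0.19 (-0.16 to 0.19 with the GC trend subtracted too). The difference of the large and small subunit medians (0.0962) was 0.0475 with the GC trend, 0.0466 with the length trend, 0.0522 with both, 0.0059 with block and GC trend, -0.0198 with the GC trend of the longest transcript, and from 0.0726 to 0.0952 with each library left out (with the GC trend subtracted too, 0.0361, 0.0557 and 0.0173 without each Csk(+/+) and 0.0275 and 0.0372 without each Csk(f/f)-labelled library). The Csk estimate (0.18) was -0.0437 with the GC trend, -0.0424 with GC and length trends, 0.0118 with block and GC trend, -0.1413 with the GC trend of the longest transcript, and with the GC trend subtracted -0.1000, -0.0405 and 0.0102 without each Csk(+/+) and -0.0357 and -0.0496 without each Csk(f/f)-labelled library. The cause of these shifts was not tested. For the 26 named members tested, 496 of 567 alternative values moved by less than the spread between replicates and 111 had the other sign, without being called. The GC content of the longest transcript and the libraries left out with the GC trend subtracted were added after seeing the data.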
